A study of Homo sapiens with 2 samples.

Results

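The features described here are those of at least 400 bases to which the SFB-Ku80 library gave at least 20 uniquely mapped read pairs and at least 2 times as many pairs as the SFB empty vector library, with 1 added to each count. They were 344 of the 63494 annotated features in the count tables. The same rule left out 3 gene IDs, the start of chromosome 1, a window of chromosome 6 and the first stretch of chromosomes 13, 14, 15, 21 and 22. Of the 9535 features that met the limits on length and SFB-Ku80 pairs outside those places, 3.61% were members. The members were chosen by their unique pair counts in both libraries, so these counts are given as a description and were not tested.

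Both libraries came from HEK293T, an embryonic kidney cell line, with a stable SFB empty vector or with stable SFB-Ku80. SFB is an epitope tag pulled down here on streptavidin and then Flag resin. Each condition had 1 library, so no difference between them has a replicate check. Cells of both conditions had received 0.1 mM 6SG, a photoreactive guanosine analogue, overnight, and 0.4 J per square cm of light at 365 nm, which crosslinks the analogue to bound protein (PAR-CLIP).

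Ku80 and Ku70 form a ring-shaped heterodimer that binds ends of double-stranded DNA and recruits the kinase DNA-PKcs in non-homologous end joining. The heterodimer also binds structured RNA, and it is abundant in nuclei of human cells. Recovery of RNA with the tag alone serves as the background of the pull-down.

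The SFB empty vector library held 29863974 read pairs, of which 6062669 were assigned uniquely to a feature, against 22173753 and 1443251 for SFB-Ku80. With the assigned pairs as the base, the ratio of 2 in the rule stands for a ratio of 8.40 between shares. With all read pairs as the base, it stands for a ratio of 2.69. The median log2 ratio of raw pairs over the 9535 features was -1.95, and over the members it was 1.54.

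The members carried 84002 pairs in SFB-Ku80, or 5.82% of its assigned pairs (exact binomial 95% interval 5.78 to 5.86). In SFB empty vector they carried 19674, or 0.3245% (0.320 to 0.329). These intervals, like the others below on counts of pairs, treat every read pair as independent. They hold no variation between libraries, since neither condition had a replicate. The read pairs carry no molecular identifiers, so copies of a molecule could not be told apart. The intervals may therefore be too narrow even for counting error. The pairs were unevenly spread over the members. The 3 members above 10000 pairs held 48.8% of the members' SFB-Ku80 pairs, and the 8 members with at least 1000 held 58.7%. Over the members the median was 47 pairs with SFB-Ku80 and 14 with the empty vector, where 129 members had 10 or fewer. Of the ratios, 116 lay from 2 to 2.5, 65 from 2.5 to 3, 108 from 3 to 5, 37 from 5 to 10, 10 from 10 to 20, and 8 at 20 or above.

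**Figure D1:**
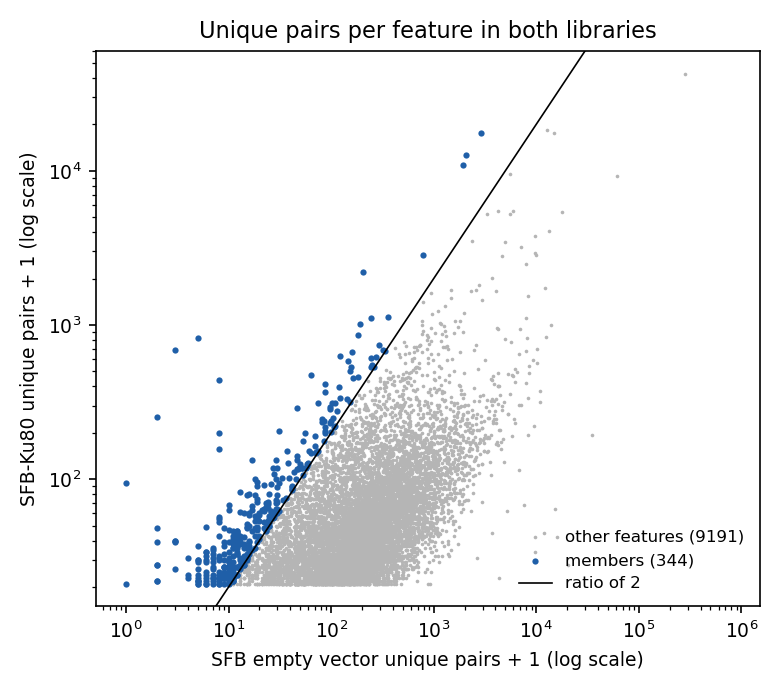
Unique pairs plus 1 in SFB empty vector (x axis) and SFB-Ku80 (y axis), both on log scales, for the 344 members in blue and the 9191 other features with the same length and depth limits in grey. The members lie on or above the line of ratio 2, most of them at low pair numbers, and 3 of them exceed 10000 SFB-Ku80 pairs.

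At the limit itself, the features on either side differed by few pairs. Just inside were features without a name at chr11:55429533-55430476 (30 pairs with the empty vector and 61 with SFB-Ku80), at chr3:37218179-37219388 (29 and 59) and at chr16:79611901-79627576 (24 and 49), each with a ratio of 2.00. Just outside were an unnamed feature at chr16:63044533-63080643 (40 and 80, ratio 1.98), LOC107986277 (75 and 149, ratio 1.97) and CHL1, a neural cell adhesion gene (35 and 70, ratio 1.97). All coordinates are those of CHM13 v1.1.

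The count tables name no genes. A RefSeq name was assigned to 166 members by chromosome, strand, length and order, and 178 stayed unnamed, described below by position. The named members comprised 131 protein-coding genes (78.9%, beside 96.0% of all named features within the limits), 32 long non-coding RNAs and 3 pseudogenes. A name was found for 48.3% of the members and for 70.3% of the 9535 features, and among the named, long non-coding RNAs made up 19.3% and 3.18%.

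The member with the most SFB-Ku80 pairs had no name. It lay at chr20:26171561-26255293 on the minus strand, the next named features being LOC124904967 and FRG1CP, and had 2922 pairs with the empty vector and 17470 with SFB-Ku80. The second lay at chr17:19137651-19138225, also on the minus strand, and is a single block of 575 bases. It had 2069 pairs with the empty vector and 12575 with SFB-Ku80. Another member, at chr17:19136017-19136816 on the plus strand, lay 834 bases from it, with 23 and 64 pairs. The next named features were EPN2-AS1 and SNORD3C, a copy of the U3 snoRNA, which guides early cleavages of pre-rRNA. Their distances from these members were not measured.

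KLHDC7B, which encodes a kelch-domain protein, came next. This feature, a single exon at chr22:51056466-51061530, had 1921 pairs with the empty vector and 10942 with SFB-Ku80. BEST2 at chr19:12876194-12882953, a gene for a bestrophin anion channel, had 794 and 2861. LRP4 at chr11:47013618-47075510, the agrin co-receptor of the neuromuscular junction, had 202 and 2215. CDHR1 at chr10:85073061-85098147, a cadherin of photoreceptors, had 357 and 1122. Ratios in these 4 genes ran from 3.14 for CDHR1 to 10.9 for LRP4, and KLHDC7B stood close to the chromosome 20 and 17 members, at 5.69 against 5.98 and 6.08. The other members among the first 10 were unnamed features at chr12:121836201-121859923 (244 and 1107 pairs) and chr20:33910400-33914450 (189 and 1016), TMEFF1, a transmembrane protein gene (180 and 862), and TAT.

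The highest ratios rested on very few SFB empty vector pairs. DGAT2L6 at chrX:68610847-68639072, of the diacylglycerol acyltransferase family, had 2 pairs with the empty vector and 686 with SFB-Ku80, a ratio of raw pairs of 343 (exact interval 94.6 to 2838). TAT at chr16:77382852-77394286, the tyrosine aminotransferase of liver, had 4 and 828, a ratio of raw pairs of 207 (80.5 to 762). An unnamed single-exon feature at chr17:16585640-16586429 had 1 and 253, a ratio of 253 (45.0 to 10032). All 3 were chosen as the highest by these same pairs.

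MMP28, a secreted metalloproteinase, had 7 pairs with the empty vector and 436 with SFB-Ku80, PVALB, the calcium-binding parvalbumin, 7 and 198, and TNNT2, cardiac troponin T, 7 and 156. Their raw ratios were 62.3 (30.0 to 156), 28.3 (13.5 to 71.3) and 22.3 (10.6 to 56.3). Only 2 members had no SFB empty vector pair at all. One at chr9:47741525-47753540 had 93 SFB-Ku80 pairs, at least 31.0-fold more than the 3 pairs that a count of 0 allows, and one at chr10:26672724-26678189 had 20, at least 6.67-fold more. The exact intervals, which also count the error of the SFB-Ku80 pairs, began lower, at 24.7 and 4.94. The remaining places were taken by unnamed features at chr2:29104432-29117982 (1 and 47 pairs, raw ratio 47.0, interval 8.03 to 1895) and chr10:45780327-45800938 (1 and 38, raw ratio 38.0, interval 6.42 to 1540).

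**Figure D2:**
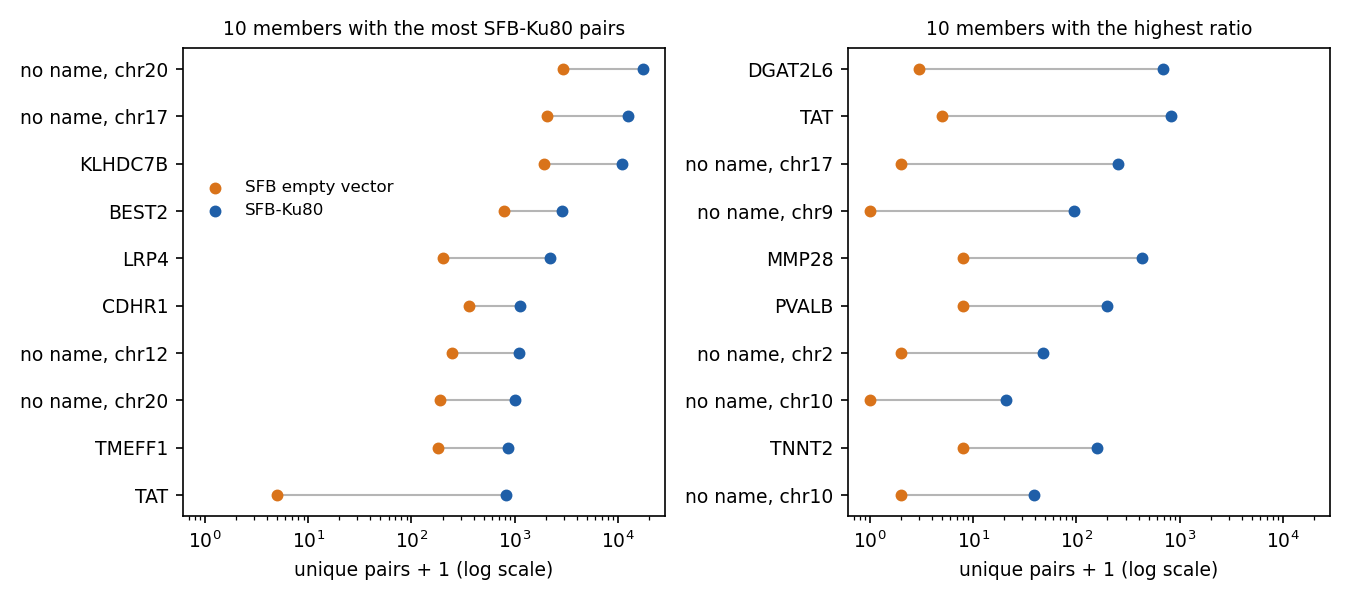
Unique pairs plus 1 on a log scale in SFB empty vector (orange) and SFB-Ku80 (blue) for the 10 members with the most SFB-Ku80 pairs (left) and the 10 with the highest ratio (right), joined by a grey line per member. TAT is in both panels, with 4 and 828 pairs, and the right panel's SFB empty vector counts run from 0 to 7.

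The named members can be grouped by what they are known to encode. The groups that follow were put together by hand after the values were seen, and they leave out most members. How common such genes are among all 9535 features was not counted, so the size of a group says nothing about the members as a whole. Of the named genes, 13 encode receptors, channels or transporters of nerve and other excitable or endocrine cells. Their SFB-Ku80 pairs ran from 22 to 607, their SFB empty vector pairs from 2 to 243, and their ratios from 2.05 to 13 with a median of 2.49. In this group HCN2, a pacemaker channel, had 243 pairs with the empty vector and 607 with SFB-Ku80. The noradrenaline transporter SLC6A2 had 70 and 146. DRD2, a dopamine receptor, had 18 and 89, and MTNR1B, a melatonin receptor, 2 and 38. MTNR1B had the highest ratio of the group.

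A group of 8 developmental transcription factors ran from 22 to 89 pairs in SFB-Ku80, with ratios of 2.05 to 3.94 and a median of 2.13. HAND1, a factor of heart development, had 41 pairs with the empty vector and 89 with SFB-Ku80, and CDX1, of the intestine, 16 and 66. A mixed group of 6 enzymes held TAT and DGAT2L6. In it PNMT, which makes adrenaline, had 68 and 189 pairs, and CYP1A2, a liver cytochrome P450, 25 and 61. The 6 genes of immune cells ran from 21 to 547 SFB-Ku80 pairs with a median ratio of 3.46. They were led in pairs by HLA-DQB2, a class II histocompatibility gene with 247 and 547, and in ratio by LILRB5, an inhibitory receptor gene with 1 and 21. Of the 6 genes for secreted or matrix proteins, EGF had 118 and 395, and RSPO2, a secreted activator of Wnt signalling, 5 and 48. The 3 keratin and hair genes ran from 22 to 117 SFB-Ku80 pairs, KRT81 being the highest with 29 and 117. The nuclear copies of the mitochondrial ND2 gene, MTND2P8 and MTND2P40, had 16 and 62, and 4 and 29.

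No member was found in most gene lists tied to Ku, the nucleolus or abundant RNA, beside 3.61% of the 9535 features. Most of these lists were short and could hold no member at that share, and the absence was not tested. The limits and the places left out kept other features of these kinds from being counted. The end-joining list did not hold XRCC5, the Ku80 gene. The lists and the number of their features within the limits on length and SFB-Ku80 pairs were end-joining genes (5), box C/D snoRNP and U3 proteins (5), RNA polymerase I subunits (4), histone genes outside the chromosome 6 window (6), snoRNA host genes (4), ribosomal protein genes (51), the mitochondrial genome (10) and nuclear non-coding RNAs (3). Their median log2 ratios lay between -3.87 for the mitochondrial genome and -1.62 for the histone genes, beside -1.95 over the 9535 features. In each of these lists every such feature had a ratio under 1, where the upper quartile over the 9535 features was 0.559. The list of pseudogenes held 3 members among 55 features, or 5.45%, beside 3.61% of all 9535, and 42 of the 55 had a ratio under 1. The 3 were the pair of ND2 copies and KRT224P (14 and 29 pairs), and the median log2 ratio of the list was -1.48.

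The strand of the pairs was not used by the rule. STAR counts each pair in a first column when its first read lies on the feature's strand and in a second column when the second read does. In SFB empty vector the second column held 75.1% of the stranded pairs over all features, and in SFB-Ku80 67.6%. On the members it held 57.9% in SFB empty vector (exact interval 57.2 to 58.5) and 58.2% in SFB-Ku80 (57.8 to 58.5). On the 9191 other features within the limits, the values were 78.5% and 65.3%. The members' share was thus lower than that of the other features in each library. The intervals pool the pairs and do not measure the spread between features. Without the member with the most SFB-Ku80 pairs, the share was 52.8% with SFB-Ku80 and 54.7% with the empty vector. Both values lie outside the members' intervals, and both are still below the other features. The kit's strand is not given in the sources used here.

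Per feature, the members spread over the whole range. More SFB-Ku80 pairs lay in the first column for 168 of the 344, or 48.8%, beside 20.3% of all 9535 features. At least 80% of the pairs lay in the first column for 85 members, or 24.7% beside 5.78%, and at least 80% in the second for 87, or 25.3% beside 37.2%. The median share of the second column was 51.9% over the members and 74.5% over the other features. In SFB empty vector, where 145 members had at least 20 stranded pairs, 66 or 45.5% had more in the first column, beside 11.6% of the 9242 features with that depth, and 27 or 18.6% had at least 80% there, beside 3.41%.

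**Figure D3:**
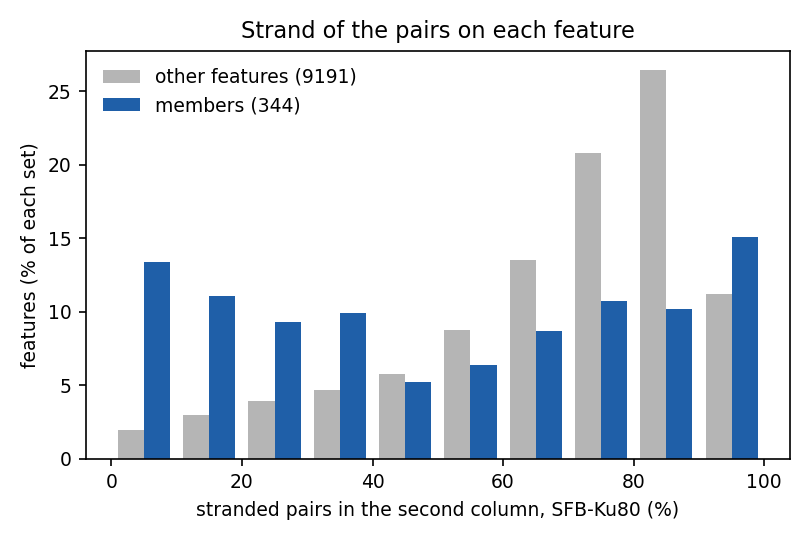
Percent of the stranded SFB-Ku80 pairs of a feature in the second column (x axis, bins of 10) against the percent of features in each bin, for the 344 members (blue bars) and the 9191 other features (grey bars). The grey bars pile up around their median of 74.5%, while the blue bars stand nearly level, with their tallest at both ends.

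Of the 10 members with the highest ratio, 8 had at least 80% of their SFB-Ku80 pairs in 1 column, as had 172 of all 344 members and 43.0% of the 9535 features. In SFB-Ku80 the first and the second column held 682 and 4 pairs on DGAT2L6, 841 and 3 on TAT, 198 and 2 on PVALB, and 155 and 1 on TNNT2. MMP28 had 391 and 46. The unnamed features at chr17:16585640 and chr9:47741525 were read the other way, with 0 and 253 and with 1 and 92. Those 5 named genes therefore had most pairs in the column that held the minority of pairs over all features. A feature annotated on the opposite strand overlapped 43 of the 85 members with at least 80% in the first column, or 50.6%, beside 59.0% of all 9535 features. For TAT the overlapping feature was CHST4, a sulfotransferase gene, with 3 SFB-Ku80 pairs. LRP4 was overlapped by LRP4-AS1, with 0 SFB-Ku80 pairs, and DGAT2L6 by none.

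Features with few SFB empty vector pairs per base were more often read in the first column in general, and the members were sparse in that library, with a median of 5.45 pairs per kilobase against 34.7 for the others. The shares in classes of that density are a description only, since the rule used the same pairs. Their intervals count features, not pairs. They treat each feature as independent, although some overlap, and hold no variation between libraries. Below 2 pairs per kilobase, 47.1% of 70 members (exact interval 35.1 to 59.4) and 55.6% of 63 others (42.5 to 68.1) had more SFB-Ku80 pairs in the first column. From 2 to 5 the values were 50.5% of 95 members (40.1 to 60.9) and 41.0% of 351 others (35.8 to 46.4), and from 5 to 10 they were 46.4% of 56 (33.0 to 60.3) and 30.6% of 806 (27.5 to 34.0). The intervals overlapped in each of these 3 classes. From 10 to 20 the shares were 48.2% of 56 (34.7 to 62.0) and 24.5% of 1633 (22.4 to 26.7), from 20 to 50 they were 48.8% of 41 (32.9 to 64.9) and 17.5% of 2932 (16.2 to 19.0), and at 50 or more 53.8% of 26 (33.4 to 73.4) and 12.6% of 3406 (11.5 to 13.7). In the densest class the members also had more SFB-Ku80 pairs, with a median of 534 against 66, and the part of that depth in the shares was not tested.

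**Figure D4:**
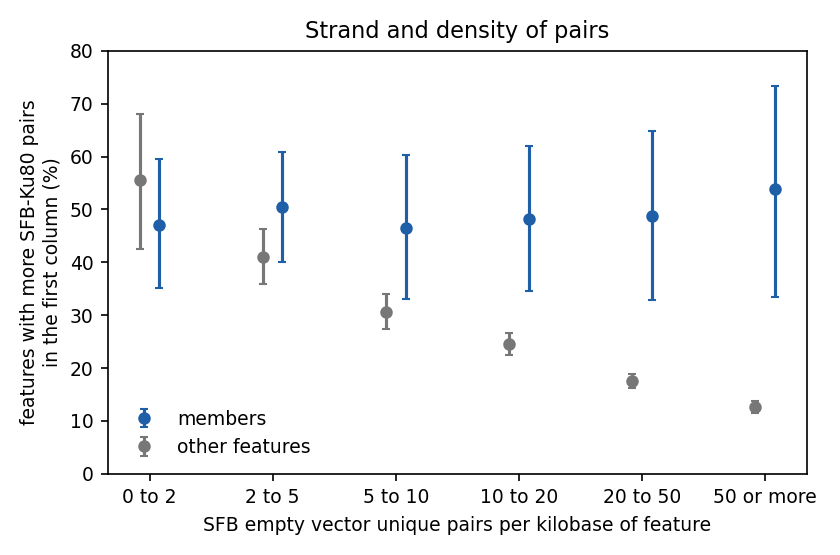
Percent of features with more SFB-Ku80 pairs in the first column (y axis) in 6 classes of SFB empty vector pairs per kilobase (x axis), for members (blue) and other features (grey), with exact binomial 95% intervals. The members lie between 46.4% and 53.8% and the others between 55.6% in the sparsest class and 12.6% in the densest, with intervals that overlap in the 3 sparser classes.

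The leading column differed between the libraries for 23 of the 145 members with at least 20 stranded pairs in each, or 15.9%, beside 11.9% of 9242 features. For 11 of the 23 the exact intervals of both libraries did not overlap, which is 7.59% of the 145, beside 8.09% of the 9242. Of these, 7 had more pairs in the first column in SFB-Ku80 (4.83%, beside 7.16%) and 4 had more in the second (2.76%, beside 0.931%). The total was thus near the share over all features. LRP4 showed the widest gap. Its first column held 29 of 221 stranded pairs in SFB empty vector, or 13.1% (8.97 to 18.3), and 2137 of 2217 in SFB-Ku80, or 96.4% (95.5 to 97.1). GIPC1, a PDZ-domain adaptor gene, had 116 and 204 pairs in the first and second column in SFB empty vector against 596 and 94 in SFB-Ku80. IGDCC3, of the immunoglobulin superfamily, had 35 and 62 against 275 and 20. The second-column pairs on LRP4 and GIPC1 were thus fewer in SFB-Ku80 than with the empty vector, and the first-column pairs alone were higher. In the other direction, the antisense gene RAB11B-AS1 had 87 and 26 pairs in SFB empty vector and 19 and 35 in SFB-Ku80.

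**Figure D5:**
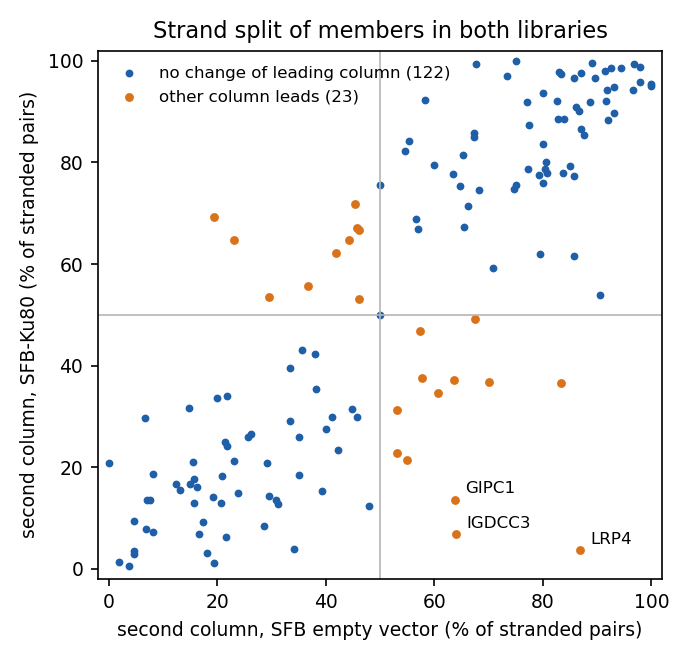
Percent of stranded pairs in the second column in SFB empty vector (x axis) and SFB-Ku80 (y axis) for the 145 members with at least 20 stranded pairs in each library. The 23 members in orange have their larger column swapped, with LRP4 at the lower right, and the remaining members in blue lie at the lower left and upper right.

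Counting by strand gives back pairs that the unstranded count drops where features overlap. The sum of both columns kept a ratio of at least 2 for 320 members (3.43% of the 9535 features had one), fell between 1 and 2 for 16 and below 1 for 8. The latter include B3GNT4, a glycosyltransferase gene, which had 29 and 78 unstranded pairs but 172 and 87 by the sum, and RAB11B-AS1, with 24 and 51 unstranded pairs and 113 and 54 by the sum. For these members the direction depended on how overlapping features were treated. TAT, with 4 and 828 unstranded pairs, kept its direction at 12 and 844 by the sum. Its ratio, with 1 added to each count, was lower there, at 65.0 against 166 by unstranded pairs.

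The featureCounts tables also count reads that map to several places. On the members, which were chosen for their ratio of unique pairs, they gave lower ratios, and that choice alone can lower a second measure. There, 182 of the 344 members or 52.9% had a ratio of at least 2 (2.42% of the 9535 features), 149 lay between 1 and 2, and 13 or 3.78% lay under 1, where 85.7% of the 9535 features lay. The median ratio was 2.07, against 2.90 by unique pairs. EPPK1, the epiplakin gene, had 2785 counts with the empty vector and 2211 with SFB-Ku80, against 181 and 457 unique pairs, and DUSP13B, a phosphatase gene, 4785 and 2883, against 35 and 75. Elsewhere the counts kept the direction: DGAT2L6 had 8 and 766, TAT 15 and 1121, and the feature at chr17:19137651 4746 and 58783. Some of the highest ratios, with 1 added to each count, were much lower by these counts. DGAT2L6 went from 229 by unique pairs to 85.2, TAT from 166 to 70.1, and TNNT2 from 19.6 to 7.85. MMP28, with 56 and 1184 counts, went from 54.6 to 20.8. The feature at chr17:16585640, with 53 and 632, went from 127 to 11.7. That at chr2:29104432, with 69 and 250, went from 24.0 to 3.59, and that at chr9:47741525 from 94.0 to 14.9. PVALB changed less, from 24.9 to 20.3. In SFB empty vector the counts per unique pair had a median of 4.64 over the members and 2.34 over the others, and in SFB-Ku80 of 2.95 and 3.06. CSMD1, a very long gene of the nervous system, had 2502 and 12346 counts against 146 and 586 unique pairs, and HSD17B13, a lipid droplet enzyme gene of liver, 18 and 736 against 7 and 20. At least 10 counts per unique pair in SFB-Ku80 were seen in 17 members, or 4.94%, and in 4.29% of all 9535 features. The highest value among the members was 182, at chr17:19136017, with 736 and 11631 counts against 23 and 64 unique pairs. Its ratio was 15.8 by counts and 2.71 by unique pairs.

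The members were short and had few exons. Their median length was 3044 bases against 5976 for the other features, and their median number of exon blocks was 4.5 against 12. A single block made up 58 members, or 16.9%, beside 4.72% of the 9535 features. Their span overlapped another feature in 59.9%, beside 69.6%, and one on the opposite strand in 48.0%, beside 59.0%. Because the rule sets a minimum number of pairs and a ratio, and shorter features hold fewer pairs, these measures are not independent of depth.

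Members were found on every nuclear chromosome in the tables. The share of the features within the limits that were members ran from 1.29% on chromosome X (4 of 310) to 6.50% on chromosome 21 (8 of 123), and chromosome 9 had the most members, 24 of 413. Most members stood alone. Besides the chromosome 17 pair at chr17:19136017 and chr17:19137651, 4 pairs lay within 10000 bases of each other or overlapped. GJD2, a neuronal gap junction gene, had 8 and 22 pairs, and its divergent transcript GJD2-DT, 85 bases away, 51 and 118. BHLHE22, a neural transcription factor gene, had 6 and 22, and the overlapping BHLHE22-AS1 8 and 32. An unnamed feature at chr17:46661024-46757303 had 99 and 238, and SPPL2C, a protease gene inside its span, 11 and 35. CLIC3, an intracellular chloride channel gene, had 12 and 60, and an unnamed feature 8197 bases away 14 and 30.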

How the data were processed

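PAR-CLIP libraries of HEK293T cells, 1 with SFB empty vector and 1 with SFB-Ku80, were compared. Alignment by the authors was with STAR 2.7.6a (submitters' processing notes) to CHM13, draft v1.1. They deposited raw counts of uniquely mapped pairs per feature, without strand and by strand, along with featureCounts 2.0.2 counts with multimapping reads (options -p -B -M, no strand, no option to count pairs, so both reads of a pair can count). Feature length is the exon union that featureCounts wrote. Adapter trimming is not given in the sources used here. Rows of unmapped, multimapping, unassigned and ambiguous pairs were left out of the features but kept in the total of read pairs. The rDNA bins were not used.

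The rule used a length of at least 400, 20 SFB-Ku80 pairs, a ratio of 2 and a pseudocount of 1. It left out the 3 named IDs, chromosome 1 before position 75700000, chromosome 6 from 25700000 to 27900000, and chromosomes 13, 14, 15, 21 and 22 before 10000000. The members and lists were chosen with earlier results of these data known. Named genes were the 10 members with most SFB-Ku80 pairs, the 10 with the highest ratio, the 3 on each side of the limit, neighbours within 10000 bases and list members; others were named after their values were seen. With 1 library each, no test was run. Shares have exact (Clopper-Pearson) 95% intervals, and ratios of pairs conditional exact ones. The floor for a count of 0 was 3 pairs per library.

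Feature IDs were paired with RefSeq genes of GRCh38.p14 by chromosome, strand where known, order and span length, within 0.5%, or within 5% for genes of at least 2000 bases between paired neighbours. This named 20629 of 63494 IDs. Of 690 chromosome 1 pairings with a symbol in the authors' table, 678 had the same one. No coordinates of GRCh38 are given. The code of the rule and of the pairing was run on simulated data with known answers. The simulated counts held counting error only, with no variation between libraries. The simulated features were made from the same RefSeq genes by dropping, resizing and adding some, not from a second assembly. Python 3.11.15, pandas 2.3.3, SciPy 1.17.1 and Matplotlib 3.10.9 were used.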

Additional observations from a re-analysis of the deposited data

How the results depend on the processing

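No paired analysis was possible because only 1 library stood for a condition and no result comes from a test. The number of members was 344, and it stayed within 1.5 times that (289 to 398) with a pseudocount of 0.5 or 5, the first stranded column, a length of at least 1000, no length limit, and the sum of the stranded columns, which was chosen after seeing the data. The features themselves changed more: of the 344, the first stranded column kept 146 among the 299 it selected, the second 157 among 211, the sum of both 320 among 368, and a pseudocount of 5 kept 289. The number was 555 with at least 10 and 162 with at least 50 SFB-Ku80 pairs, 2790 with the ratio scaled by assigned pairs, 606 scaled by all read pairs, 211 in the second stranded column and 1122 by featureCounts, which kept 182 of the 344.

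The members' share of pairs, 5.82% with SFB-Ku80 and 0.3245% with the empty vector, was 0.379% and 0.0659% of all read pairs, 4.61% and 0.276% without the member with the most SFB-Ku80 pairs, and 1.45% and 0.383% of featureCounts counts. The second stranded column's share, 58.2% and 57.9%, was 52.8% and 54.7% without that member, 54.8% and 53.2% as the median over members with at least 50 stranded pairs, and 55.1% and 54.4% over the 138 members that overlap no other feature, a setting added after seeing the data. The median log2 ratio, 1.54, was 1.32 with a pseudocount of 5, 3.61 scaled by assigned pairs and 1.05 by featureCounts. The causes of these shifts were not tested. Depth limits the ratio of the 129 members with 10 or fewer SFB empty vector pairs.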
